A study of Homo sapiens with 18 samples.

Results

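Classical cadherins are the transmembrane receptors of adherens junctions, and the 10 genes described here (CDH1, CDH2, CDH3, CDH4, CDH6, CDH7, CDH8, CDH10, CDH11 and CDH12) were taken from a named list among the 20329 genes counted. Their Ensembl identifiers were matched to symbols in the annotation, and membership sets no threshold on a measured value, although the list was drawn up with earlier results of these data known. The cells were HAP1, a near-haploid adherent human line derived from the KBM-7 leukemia line, and polyadenylated RNA was sequenced in 18 samples. Set A held 3 unmodified HAP1 controls (control A), 3 samples of *ΔWAPL* clone 3.3, 3 of *ΔSCC4* and 3 of *ΔWAPL*/*ΔSCC4*, and set B held 3 further controls (control B) and 3 samples of *ΔWAPL* clone 1.14. WAPL releases cohesin from DNA, and SCC4 (gene symbol MAU2) is part of the complex that loads it. The knockouts carry a drug-resistance cassette inserted at the cut, blasticidin for WAPL and puromycin for SCC4, and the double knockout was made by targeting SCC4 in *ΔWAPL* cells. The labels name 1 clone in each *ΔWAPL* group and do not number the *ΔSCC4* cells, so an effect of the knockout and a property of the clone cannot be told apart within a group. The labels do not say that the 3 samples of a group were separate cultures, and the p-values below measure only the spread between those samples.

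A classical cadherin reaches out from one cell and binds a cadherin on the next, while its cytoplasmic tail holds p120-catenin and beta-catenin, and through alpha-catenin the actin cytoskeleton. Type I members (CDH1, CDH2, CDH3 and CDH4 here) and type II members (the other 6) differ in how their outermost domains dock, and a cell's mixture of cadherins affects which cells it sticks to. E-cadherin (CDH1) is the usual cadherin of epithelia and N-cadherin (CDH2) that of neural and mesenchymal cells, and a move from the first to the second is a textbook feature of epithelial-mesenchymal transition.

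The knockouts were made with these guides, shown because every comparison rests on them. Lower case marks the added bases and capitals mark the stretch that matches the genome exactly at 1 place.
WAPL: caccgCGTTCCATAGTATCCTGTA
SCC4: caccgTACGGGCCTCGATGCGCTG
The WAPL guide lies at chr10:88259864-88259882 (GRCh37, plus strand) in a coding exon of WAPL, and the SCC4 guide at chr19:19431849-19431867 (GRCh37, minus strand) in a coding exon of MAU2. The level of a gene is given as CPM, its read count relative to the library size after TMM scaling. WAPL RNA was 99.2 ± 21.5 CPM in control A and 120.6 ± 14.6 in control B (SD, n = 3), against 43.7 ± 5.65 in clone 3.3, 45.5 ± 3.95 in the double knockout and 41.3 ± 2.89 in clone 1.14. MAU2 RNA was 65.6 ± 6.25 CPM in control A, 0.702 ± 0.243 in *ΔSCC4* and 0.935 ± 0.10 in the double knockout. Both targeted genes therefore went with the labels. The libraries held 10007646 to 20711127 reads on genes, and 3 reads, taken as the detection floor, equal 0.150 to 0.305 CPM.

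Of the 10 cadherins, 4 had enough reads to be tested: CDH6, CDH2, CDH10 and CDH3. The other 6 gave at most 8 reads in any library. In the annotation of GRCh37, CDH6 (ENSG00000113361) lies at chr5:31193793-31329253 on the plus strand, CDH2 (ENSG00000170558) at chr18:25512843-25757910 on the minus strand, CDH10 (ENSG00000040731) at chr5:24487209-24645087 on the minus strand and CDH3 (ENSG00000062038) at chr16:68670092-68761371 on the plus strand. No other coding gene overlaps any of the 10. The counts are sums over each gene's exons.

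Promoter entries of RefSeq, 250 bases before to 50 after a transcript start, were found for 6 of the 10 genes (CDH2, CDH4, CDH7, CDH8, CDH10 and CDH12) and not for CDH1, CDH3, CDH6 and CDH11. The promoters of CDH2 and CDH10 are shown since these are the tested members with an entry. They are GRCh38.p14 chr18:28177081-28177380 for CDH2, the first of its entries, and chr5:24644929-24645228 for CDH10, both written along the minus strand. Capitals mark the GC box (GGGCGG, here as its reverse complement) and the CCAAT box (also as its reverse complement).
CDH2: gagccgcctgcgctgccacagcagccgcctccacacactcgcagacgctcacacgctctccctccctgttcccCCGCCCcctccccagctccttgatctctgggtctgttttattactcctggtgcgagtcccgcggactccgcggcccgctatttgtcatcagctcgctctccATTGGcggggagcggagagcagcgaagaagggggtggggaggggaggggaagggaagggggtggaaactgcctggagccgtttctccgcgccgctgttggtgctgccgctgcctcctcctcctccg
CDH10: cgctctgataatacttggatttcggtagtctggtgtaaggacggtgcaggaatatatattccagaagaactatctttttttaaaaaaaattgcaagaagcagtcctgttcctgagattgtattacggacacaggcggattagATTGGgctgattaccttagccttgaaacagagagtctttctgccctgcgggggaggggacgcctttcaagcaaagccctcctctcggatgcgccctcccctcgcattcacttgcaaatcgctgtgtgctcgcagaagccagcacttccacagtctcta
The CDH2 promoter shown is 67.0% G and C with 23 CG dinucleotides, and the CDH10 promoter is 48.3% with 12. Medians over all promoters of the same length were 58.7% and 14. Both strands were searched. Neither window holds the E-box CAGGTG, which occurs in 20.6% of the 35116 promoters of the same length. The GC box occurs in 45.0% of them and is in the CDH2 window, and the CCAAT box occurs in 34.6% and is in both. The marked boxes do not overlap.

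In unmodified HAP1 cells CDH6 and CDH2 made up most of the RNA of the 10 listed classical cadherins. To compare genes, CPM was divided by the merged exon length in kilobases. In control A the level was 11.5 ± 2.00 CPM per kb for CDH6 (K-cadherin, a type II member known from the developing kidney and neural crest), 8.33 ± 0.621 for CDH2, 3.43 ± 0.351 for CDH10 (a type II member of the brain) and 0.406 ± 0.0691 for CDH3 (P-cadherin, usual in basal epithelia). Each of these ranges lay apart from its neighbours in that order. CDH24, a cadherin outside the 10, was at 5.37 ± 0.495 CPM per kb in control A, above CDH10. It was at 5.22 ± 0.204 in control B and is in none of the shares given here. In the knockouts CDH24 was at 6.42 ± 0.422 in clone 3.3, 6.20 ± 0.353 in clone 1.14 and 4.58 ± 0.949 in *ΔSCC4*. It was at 7.14 ± 0.805 in the double knockout, where CDH2 was at 6.16 ± 0.308. As shares of the summed level of the 10 genes, CDH6 gave 48.3% ± 3.19, CDH2 35.3% ± 2.20, CDH10 14.5% ± 0.522 and CDH3 1.75% ± 0.463 (SD, n = 3). Control B had 45.6% ± 0.623, 36.4% ± 1.92, 14.9% ± 2.23 and 2.87% ± 0.383 for the same genes in the same order. The order of CDH6 and CDH2 depends on the length used: per kilobase of the longest annotated transcript, control A gave 46.0% ± 2.51 for CDH2 and 42.9% ± 3.18 for CDH6, and control B 47.2% ± 1.88 and 40.4% ± 0.741. CDH10 gave 9.41% ± 0.279 in control A on that scale.

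The remaining 6 members were at or near the detection floor. CDH11 (OB-cadherin, of mesenchyme and bone) had 0 reads in all 18 libraries, which allows at most 0.150 to 0.305 CPM per library. CDH1 had 0 to 3 reads, and a read in only 6 libraries: all 3 of control B, 2 of control A and 1 of clone 1.14. Only control B reached the floor of 3 reads, so E-cadherin RNA was at or below detection in every group at this depth. Clone 3.3, *ΔSCC4* and the double knockout had 0 reads. CDH4 (R-cadherin) had 0 to 4 reads and CDH8 0 to 2.

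CDH12, a type II cadherin of the brain, had 4, 6 and 8 reads in clone 1.14 and 7, 4 and 1 in clone 3.3, against 0 or 1 read in each of the other 12 libraries. CDH7, also type II, had 6, 4 and 5 reads in clone 3.3 and 0 to 2 in every other library. CDH4 had 4, 1 and 4 reads in *ΔSCC4* and 0 or 1 elsewhere. These 3 genes passed no filter in any comparison and were not tested. With no filter, edgeR's quasi-likelihood test gave CDH12 an adjusted p of 0.0448 in clone 1.14 against control B, and CDH4 one of 0.0102 in the double knockout against *ΔSCC4*, both on single-digit reads. DESeq2, which tested both genes, gave 0.123 for CDH12 and 0.0596 for CDH4.

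**Figure D1:**
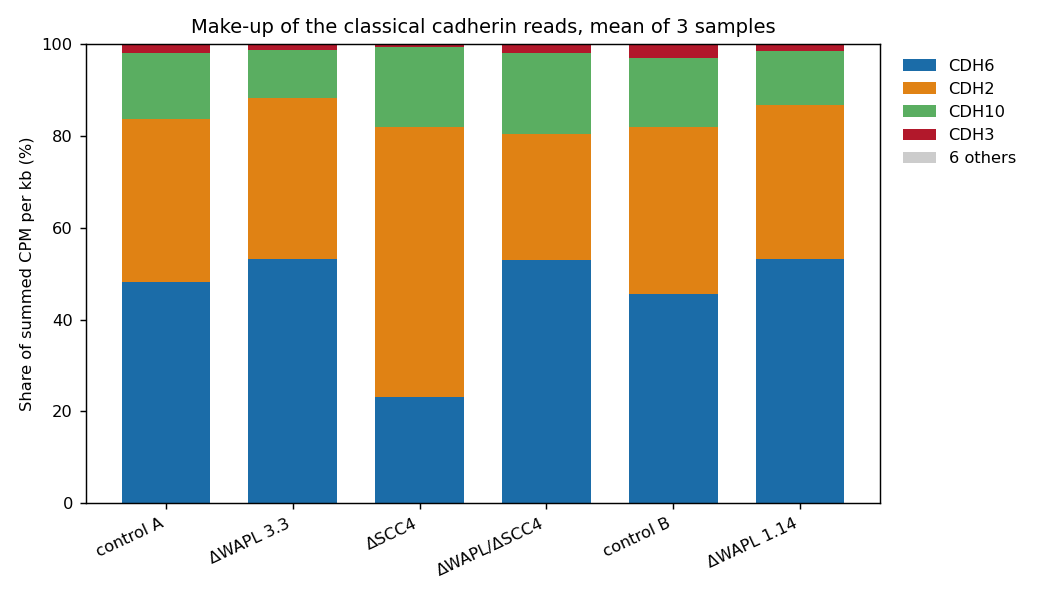
Stacked bars give the mean share (%, n = 3) of each cadherin in the summed CPM per kb of merged exon of the 10 genes, by group. CDH6 is the largest part at 45.6% to 53.1% in every group except *ΔSCC4*, where it is 23.2% and CDH2 is 58.7%, and the 6 low members are too small to see. Per kilobase of the longest transcript, CDH2 is the largest part in control A (46.0%) and control B (47.2%) as well as in *ΔSCC4* (70.2%).

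*ΔSCC4* cells had a different balance of cadherins from all other groups. CDH2 was higher than in control A, CDH6 was lower, and CDH3 fell to a small remainder. CDH10 did not pass the test.

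CDH6 had 54.6, 61 and 72.7 CPM in *ΔSCC4* and 121.7, 136.5 and 170.1 in control A. Every *ΔSCC4* sample was below every sample of the other 5 groups. How many of all genes stand apart from all other groups, here or below, was not counted. The log2 fold change was -1.20 (SE 0.17, 95% interval -1.57 to -0.83, adjusted p = 0.00104 by edgeR's quasi-likelihood test with Benjamini-Hochberg adjustment over all genes tested), which is 0.436 of the control level. CDH2 had 93.4, 112.7 and 123.1 CPM in *ΔSCC4* and 65.4, 75.0 and 74.1 in control A, again with no overlap. Its log2 fold change was 0.60 (SE 0.14, interval 0.29 to 0.92, adjusted p = 0.0225 in the same edgeR fit). CDH3 had 0.715, 0.509 and 0.622 CPM in *ΔSCC4*, resting on 11, 5 and 9 reads, and 2.87, 2.84 and 2.09 in control A. The fitted change was -2.04 (SE 0.28, interval -2.65 to -1.43, adjusted p = 0.00087, edgeR). CDH10 had 12.4, 16.7 and 12.6 CPM against 11.1, 13.1 and 13.5, groups that overlap, and its log2 fold change of 0.13 had an interval of -0.24 to 0.50.

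Of the 4 tested members 3 were thus called in *ΔSCC4* against control A, 1 higher and 2 lower, where 9.49% of the 12503 genes tested were called, 5.45% higher and 4.03% lower. The samples of the groups lay apart for the same 3 genes, where 15.2% of the 12976 genes past the filter over all 18 samples were above and 11.7% below in every sample. The median log2 fold change of the 4 was -0.53, against about 0 over all genes. Samples with the same number in these groups deviated together, and a fit blocked on that number called the same 3. With the block, the calls over all genes went from 1186 to 5754 of the 12503 tested. The 9.49% and the values above are from the fit without the block, and the share called with it is far higher. The call of CDH2 depended on single libraries: its adjusted p (edgeR) was 0.0958 without control A replicate 2, 0.0914 without *ΔSCC4* replicate 2 and 0.0625 without *ΔSCC4* replicate 3. Libraries also differed in how their counts moved with the GC content of the genes. Spearman's rho of each library's deviation from its gene means with exon GC content ran from -0.50 to 0.52 in control A and from 0.04 to 0.53 in *ΔSCC4*, and CDH2 and CDH6 are GC-poor genes (41.7% and 41.6%). After a correction for GC content, fitted with the block, the changes were 0.69 for CDH2, -1.11 for CDH6 and -2.13 for CDH3, all with adjusted p (edgeR) at or below 4.86e-05.

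**Figure D2:**
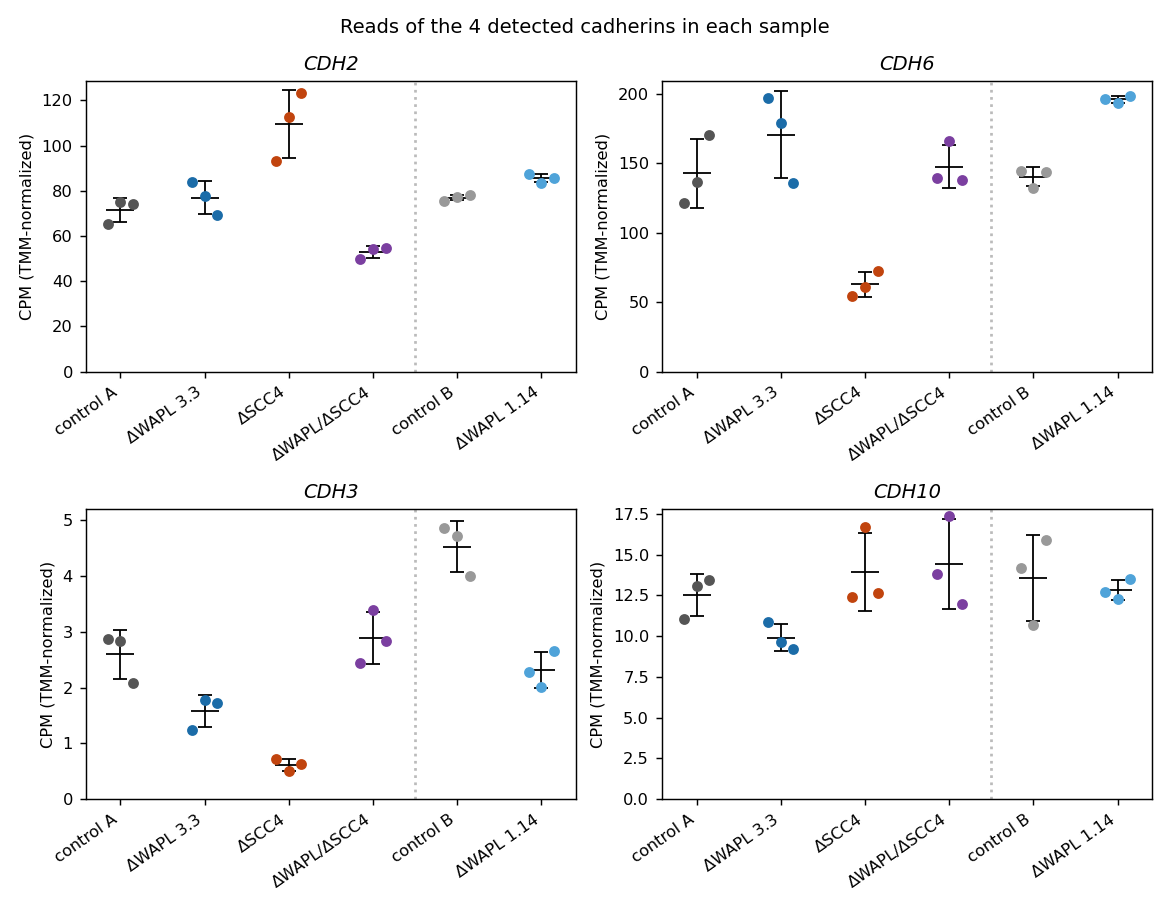
Points give the CPM of each sample for the 4 tested cadherins, with the mean and SD of 3 samples as bars and a dotted line between set A and set B. In *ΔSCC4* all CDH6 and CDH3 points lie below, and all CDH2 points above, those of every other group, and CDH10 overlaps between most groups.

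The summed level of the 10 genes did not stand apart in *ΔSCC4*. It was 18.8 to 23.8 CPM per kb in *ΔSCC4* and 20.9 to 26.3 in control A, ranges that overlap. Clone 3.3 (21.8 to 28.8) and the double knockout (21.1 to 24.9) also overlapped control A. Clone 1.14 (29.1 to 30.1) lay above control B (23.3 to 25.7), as did 19.5% of 12976 single genes in every sample. Within the summed level, the share of CDH2 was 58.7% ± 1.43 and that of CDH6 23.2% ± 1.5 in *ΔSCC4*. The ratio of CDH6 to CDH2 within each sample, per kilobase of merged exon, was 0.403, 0.373 and 0.407 in *ΔSCC4* and 1.28, 1.25 and 1.58 in control A. It was above 1 in all 15 samples of the other groups on that scale. Per kilobase of the longest transcript every ratio is multiplied by 0.682, which leaves *ΔSCC4* apart (0.254 to 0.278) but puts the ratio above 1 in only 9 of the 15, with 0.855 to 1.08 in control A and 0.806 to 0.899 in control B. In bulk RNA, fewer cells with a transcript and less transcript in each cell cannot be told apart, so these ratios describe the culture and not the single cell.

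**Figure D3:**
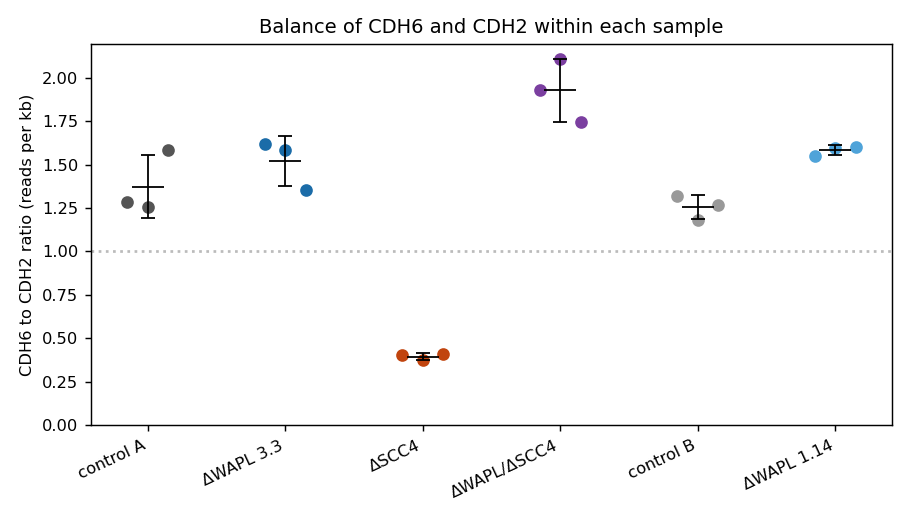
Points give the ratio of CDH6 to CDH2 (each as CPM per kb of merged exon) in each sample, with mean and SD (n = 3), and the dotted line marks equal levels on that scale, a position that moves with the length used. The 3 *ΔSCC4* samples lie at 0.373 to 0.407 and the double knockout samples at 1.75 to 2.11.

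The double knockout, which lacks WAPL as well as SCC4, did not have the *ΔSCC4* balance. CDH6 and CDH3 were near the levels of control A, and CDH2 was at the lowest level of any group. CDH6 made up 52.9% ± 0.509 of the summed level and CDH2 27.6% ± 2.33.

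CDH2 had 49.8, 54.3 and 54.5 CPM in *ΔWAPL*/*ΔSCC4*, below every other sample of the series. Against control A its log2 fold change was -0.44 (SE 0.12, interval -0.69 to -0.18, adjusted p = 0.0434, edgeR). That was the 1 member called of 4 tested, where 7.95% of the 12594 genes tested were called, 4.65% higher and 3.3% lower, and where 11.1% of 12976 genes lay below control A in every sample and 11.9% above, and the median of the 4 was 0.10 against 0.00 over all genes. This call was lost in 5 of the 6 fits that left out 1 library, with adjusted p (edgeR) of 0.216 without control A replicate 2, 0.0759 without control A replicate 3, and 0.246, 0.106 and 0.134 without double knockout replicates 1, 2 and 3. CDH6 had 139.3, 165.6 and 137.8 CPM, CDH3 2.45, 3.38 and 2.83 and CDH10 13.8, 17.4 and 12, all overlapping control A. The intervals of their log2 fold changes against control A were -0.28 to 0.37 for CDH6, -0.31 to 0.60 for CDH3 and -0.16 to 0.56 for CDH10.

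Against *ΔSCC4*, the double knockout had higher CDH6 and CDH3 and lower CDH2. The log2 fold changes were 1.23 for CDH6 (SE 0.14, adjusted p = 3.82e-06), 2.18 for CDH3 (SE 0.28, adjusted p = 1.66e-05) and -1.05 for CDH2 (SE 0.13, adjusted p = 1.54e-05), all by edgeR, and the samples of the 2 groups did not overlap for any of these genes. CDH10 was 14.4 ± 2.75 against 13.9 ± 2.41 CPM, with an interval of -0.30 to 0.41 on the log2 scale. So 3 of 4 were called where 27.3% of the 12604 genes tested were, 13.7% higher and 13.6% lower, and where 19.2% of 12976 genes lay above and 22% below *ΔSCC4* in every sample. The median of the 4 was 0.64 against about 0 over all genes.

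In cells already without WAPL, SCC4 loss went with lower CDH2 and higher CDH3 and CDH10. Against clone 3.3, whose number the double knockout's labels carry, CDH2 was lower (log2 fold change -0.54, SE 0.12, adjusted p = 0.00699), CDH3 higher (0.89, SE 0.22, adjusted p = 0.0162) and CDH10 higher (0.53, SE 0.16, adjusted p = 0.0378), all by edgeR. CDH6 had a log2 fold change of -0.21 with an interval of -0.50 to 0.08. These were 3 calls among 4, where 10.6% of the 12544 genes tested were called, 6.05% higher and 4.55% lower, with a median of 0.16 for the 4 and -0.01 for all genes. Without double knockout replicate 1 only CDH3 stayed called, with CDH2 at an adjusted p of 0.0626 and CDH10 at 0.0656. Without double knockout replicate 2 only CDH2 did, with CDH3 at 0.0578 and CDH10 at 0.139. CDH3 was also lost without clone 3.3 replicate 1 (0.0653), CDH10 without clone 3.3 replicate 2 (0.121), and CDH3 under DESeq2 (0.0726), the other values being edgeR's.

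The WAPL by SCC4 interaction tested whether the change with SCC4 loss differed between cells with and without WAPL. For CDH6 it was 1.00 (SE 0.22, interval 0.52 to 1.48, adjusted p = 0.00807), for CDH3 2.93 (SE 0.34, interval 2.20 to 3.67, adjusted p = 3.69e-05) and for CDH2 -1.14 (SE 0.17, interval -1.5 to -0.77, adjusted p = 0.000362), on the log2 scale by edgeR over the 12 samples of set A. For CDH10 it was 0.42 with an interval of -0.07 to 0.90. The share called among the 12817 genes tested was 11.3%, with 5.85% higher and 5.48% lower, and the median of the 4 was 0.71 against 0.00. These 3 calls held in each of the 12 fits that left out 1 library.

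**Figure D4:**
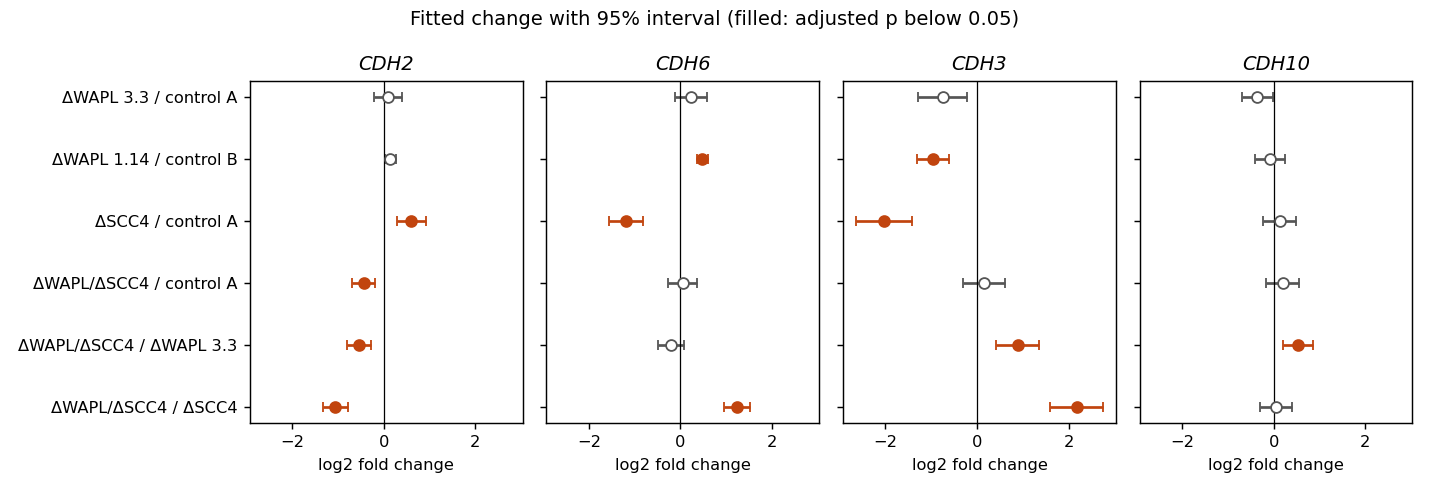
Points give the fitted log2 fold change and bars its 95% interval for each tested cadherin in 6 comparisons, filled where the adjusted p is below 0.05. CDH2 and CDH6 point in opposite directions in *ΔSCC4* against control (0.60 and -1.20) and in the double knockout against *ΔSCC4* (-1.05 and 1.23). The 3 *ΔSCC4* samples enter both with opposite sign, so the reversal is not separate evidence. The comparisons with control A share its 3 samples.

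With WAPL loss alone, 2 of the 4 were called in clone 1.14 and 0 in clone 3.3. In clone 1.14, CDH6 was higher and CDH3 lower than in control B. CDH6 had 196.0, 193.6 and 198.6 CPM in clone 1.14 and 144.5, 132.4 and 143.7 in control B, a log2 fold change of 0.48 (SE 0.052, interval 0.36 to 0.60, adjusted p = 0.000814, edgeR). CDH3 had 2.28, 2.02 and 2.66 CPM against 4.85, 4.71 and 4.0, a change of -0.96 (SE 0.15, interval -1.31 to -0.61, adjusted p = 0.00432, edgeR). Neither gene's groups overlapped. CDH2 had 87.2, 83.6 and 85.5 CPM against 75.6, 77.2 and 78.1, also apart, but its change of 0.15 missed the threshold (adjusted p = 0.0884, edgeR). CDH10 had 12.7, 12.3 and 13.5 CPM within the range of control B, 10.7 to 15.9. These 2 calls among 4 compare with 20.1% of the 12636 genes tested, 8.7% higher and 11.4% lower, and the 3 genes whose samples lay apart (2 above, 1 below) with 19.5% of 12976 genes above and 22.8% below. The median of the 4 was 0.03 against 0.00 over all genes. The exon-GC rho ran from -0.41 to -0.26 in clone 1.14 and from -0.40 to 0.27 in control B, and with the correction CDH6 was at 0.36 (adjusted p = 0.000988, edgeR).

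In clone 3.3 none of the 4 was called against control A by edgeR or by DESeq2, where edgeR called 8.07% of the 12489 genes tested. At an unadjusted p under 0.05 edgeR gave 2, CDH3 and CDH10, where 17.5% of all genes tested had one. Both lay below control A in every sample, as did 12.2% of 12976 genes, while 11.4% lay above. CDH3 had 1.25, 1.77 and 1.73 CPM in clone 3.3, below all samples of control A, and its log2 fold change was -0.75 (SE 0.25, interval -1.28 to -0.22, adjusted p = 0.0895, edgeR). One fit over all 18 samples, which shares the spread among the groups, called CDH3 (-0.73, adjusted p = 0.0176, edgeR), as did the fit without control A replicate 3 (-0.89, adjusted p = 0.0468). CDH10 had 10.9, 9.62 and 9.24 CPM, below the 11.1 to 13.5 of control A (-0.36, interval -0.69 to -0.02, adjusted p = 0.249, edgeR), and among the alternatives run was called with the GC correction alone (-0.47, adjusted p = 0.0203). CDH6 had 196.8, 178.6 and 135.8 CPM and CDH2 83.8, 77.7 and 69.2, both overlapping control A, with intervals of -0.11 to 0.59 and -0.21 to 0.39. The median of the 4 was -0.13, against about 0 over all genes.

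The clones were not shown to differ in any cadherin. The difference of their changes, each against its own controls, was -0.23 for CDH6 (interval -0.65 to 0.20), 0.22 for CDH3 (-0.37 to 0.81), -0.05 for CDH2 (-0.34 to 0.25) and -0.25 for CDH10 (-0.69 to 0.18). None was called by edgeR or DESeq2 and none had an unadjusted p under 0.05 in edgeR, where 2.65% of the 12786 genes tested were called and 10.9% had an unadjusted p under 0.05. The median of the 4 was -0.14 against 0.00.

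Between the controls, CDH3 had the widest difference of the 4. It was 4.52 ± 0.459 CPM in control B and 2.60 ± 0.442 in control A, a log2 difference of 0.78 (SE 0.19, interval 0.36 to 1.21, adjusted p = 0.125, edgeR). None of the 4 was called by edgeR or DESeq2, where edgeR called 0.64% of the 12509 genes tested. CDH3 alone had an unadjusted p under 0.05, as did 11.1% of all genes tested. One fit over all 18 samples gave CDH3 an adjusted p of 0.0139 and the GC correction one of 0.0393 (edgeR). Clone 1.14, called lower than control B, had 2.32 ± 0.320 CPM, which is within 1 SD of control A. The medians of the 4 and of all genes were 0.10 and -0.02.

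Ordered by group, CDH6 was highest in clone 1.14 (196.1 ± 2.49 CPM) and then in clone 3.3 (170.4 ± 31.3), the double knockout (147.6 ± 15.6), control A (142.8 ± 24.9) and control B (140.2 ± 6.79), and each of these overlapped its neighbour in the order. *ΔSCC4* came last at 62.8 ± 9.18, apart from all others. CDH2 had the order *ΔSCC4* (109.7 ± 15.1), clone 1.14 (85.5 ± 1.79), control B (77.0 ± 1.24), clone 3.3 (76.9 ± 7.33), control A (71.5 ± 5.33) and double knockout (52.8 ± 2.64). Clone 3.3 overlapped clone 1.14, control B and control A, and the first and last groups stood apart from all others. The range of the group means on the log2 scale was 2.65 for CDH3, 1.65 for CDH6, 1.04 for CDH2 and 0.52 for CDH10.

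By the root mean square difference of log2 CPM, centred over the 18 samples, the pattern of CDH6 was nearest to those of PLXNC1 (0.110), GREB1L (0.187) and CARMIL1 (0.196) among 11562 genes. PLXNC1 had 21.7 ± 3.62 CPM in *ΔSCC4* and 45.2 ± 7.71 in control A. The pattern of CDH3 was nearest to those of TDGF1 (0.246), RASGEF1A (0.337) and IL6R (0.372). TDGF1 had 0.682 ± 0.168 CPM in *ΔSCC4* and 2.71 ± 0.411 in control A. The samples share their libraries and depth, and these distances are a description.

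The catenins join cadherins to actin. Of the 12 genes of the cadherin-catenin complex list, 9 were tested in *ΔSCC4* against control A and 0 were called by edgeR, with a median log2 fold change of -0.12. CTNNB1 (beta-catenin) was 466.7 ± 75.4 CPM in control A and 455.3 ± 67.5 in *ΔSCC4*, and CTNND1 (p120-catenin), which holds cadherins at the surface, 275.1 ± 13.1 and 303.6 ± 4.75. In clone 1.14, 3 of 9 were lower: JUP (plakoglobin) by a log2 change of -0.65, AJUBA by -0.35 and VCL (vinculin) by -0.31, where 11.4% of all genes tested were lower. None of the 9 was called in clone 3.3 or in the double knockout against control A. Changes in clone 3.3 ran the same way, at -0.50 for JUP, -0.33 for AJUBA and -0.28 for VCL. For these 3 genes the difference between the clones was 0.17, 0.04 and 0.05, and none was called by edgeR. Against clone 3.3, VCL was higher in the double knockout (0.43), 1 of 9 where 6.05% of all genes were higher, and against *ΔSCC4* 2 of 10 were lower, AJUBA (-0.39) and, on 1 to 15 reads per library, CTNNA3 (-1.29), where 13.6% of all genes tested were lower.

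Transcription factors known to repress CDH1 were tested as a list of 8, of which 6 or 7 passed the filter. TWIST1 was higher in both *ΔWAPL* clones. It had 16, 14.4 and 14.4 CPM in clone 3.3 against 5.47, 5.80 and 5.48 in control A (log2 fold change 1.40, SE 0.16, adjusted p = 2.66e-05, edgeR), and 16.9, 17.5 and 16.1 in clone 1.14 against 5.95, 6.66 and 6.42 in control B (1.40, SE 0.084, adjusted p = 4.99e-05, edgeR). It was the 1 factor of 6 called in clone 3.3, where 4.17% of all genes tested were called higher. SNAI2, on 5 to 24 reads, was called higher too in clone 1.14, which makes 2 of 7 where 8.7% of all genes were higher. SNAI2 did not pass the filter in clone 3.3 and was not tested there. It had 7 to 17 reads in clone 3.3 and 1 in each library of control A. In *ΔSCC4* against control A 0 of 6 were called by edgeR. The median log2 fold change of the list was 0.35 in clone 3.3, 0.23 in clone 1.14, 0.28 in *ΔSCC4* and 0.40 in the double knockout, each against its controls, where the median of all genes was about 0. The double knockout had TWIST1 at 9.20 ± 0.119 CPM (0.72 against control A, adjusted p = 0.00549, edgeR), below clone 3.3 (-0.70, adjusted p = 0.00178, edgeR). ZEB2 had 29.1, 34.2 and 25.2 CPM there, below every other sample of the series (-0.82 against control A, adjusted p = 0.02; -1.12 against *ΔSCC4*, adjusted p = 1.89e-05, edgeR). ZEB1 was lower than in clone 3.3 (-0.82) and in *ΔSCC4* (-0.49), and SNAI3, on 7 to 29 reads per library, was higher than in control A (1.24). Against control A this is 2 of 6 higher and 1 lower, where 4.65% and 3.3% of all genes were. Against clone 3.3 it is 3 of 6 lower (ZEB2 by -0.61) where 4.55% were, and against *ΔSCC4* 2 of 6 lower where 13.6% were. CDH1 had 0 reads in the double knockout and 0 to 2 in control A.

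**Figure D5:**
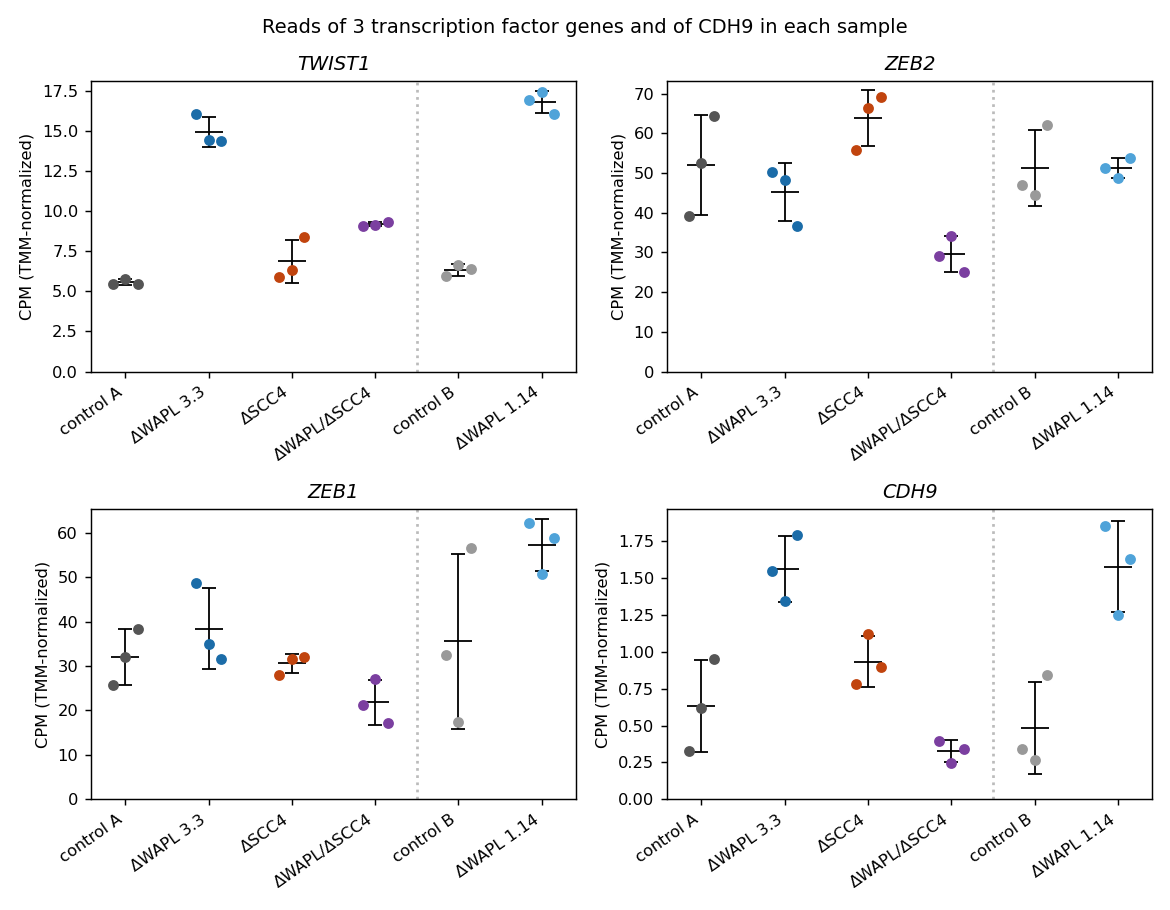
Points give the CPM of each sample for TWIST1, ZEB2, ZEB1 and CDH9, with mean and SD of 3 samples and a dotted line between the sets. TWIST1 is at 14.4 to 17.5 in the *ΔWAPL* clones and 5.47 to 6.66 in the controls, and ZEB2 is lowest in the double knockout (25.2 to 34.2).

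Among 11 cadherins outside the list, only 1 or 2 passed the filter in any comparison. CDH9, a type II cadherin of the brain, was called higher in clone 3.3 (1.26, adjusted p = 0.0289, edgeR) and in clone 1.14 (1.63, adjusted p = 0.0233), and lower in the double knockout against clone 3.3 (-2.22, adjusted p = 0.000186) and against *ΔSCC4* (-1.45, adjusted p = 0.0108). It rests on 4 to 35 reads per library and, like SNAI2, SNAI3 and CTNNA3, was named after its values were seen. CDH24 was called higher in the double knockout against *ΔSCC4* (0.63, adjusted p = 0.00825, edgeR). Neither was called in *ΔSCC4* against control A. The shares of all genes called in the same directions were 4.17%, 8.7%, 4.55% and 13.6% for the CDH9 comparisons in that order and 13.7% for CDH24.

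Of 5 genes for the processing and turnover of cadherins, PCSK6, a proprotein convertase, was called higher in *ΔSCC4* (0.68, adjusted p = 0.0117, edgeR) and lower in the double knockout against *ΔSCC4* (-0.39), and FURIN, which cleaves cadherin precursors, was lower in clone 1.14 (-0.34). Of 11 desmosome genes 4 were tested. DSP (desmoplakin) was higher in the double knockout than in clone 3.3 (0.51) and *ΔSCC4* (0.77), and PKP2 than in *ΔSCC4* (0.68). Of 4 nectins, which start the junctions that cadherins complete, 3 were tested: NECTIN2 was lower in clone 1.14 (-0.66), NECTIN3 in the double knockout against control A (-0.50) and clone 3.3 (-0.60), and NECTIN1 in the double knockout against *ΔSCC4* (-0.48). These are 1 gene of a list or, for the desmosome genes against *ΔSCC4*, 2 of 4 in each comparison, where the shares of all genes called in the same direction were 5.45% (higher) in *ΔSCC4* against control A, 11.4% (lower) in clone 1.14, 3.3% (lower) in the double knockout against control A, 6.05% (higher) and 4.55% (lower) against clone 3.3, and 13.7% (higher) and 13.6% (lower) against *ΔSCC4*. In each of these lists 0 genes were called by edgeR in clone 3.3 against control A. There FURIN had a change of -0.33 and NECTIN2 one of -0.33. Their differences between the clones, 0.03 and 0.35, were not called. In *ΔSCC4* against control A 0 desmosome genes and 0 nectins were called by edgeR.

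Marker genes of other cell states moved with some groups. A marker is counted below as above or below where all 3 samples of a group lay beyond all 3 controls of its set. Among 12976 genes past the filter, 15.2% lay above and 11.7% below in *ΔSCC4*, 11.9% and 11.1% in the double knockout, 11.4% and 12.2% in clone 3.3, and 19.5% and 22.8% in clone 1.14. The markers themselves were counted without that filter.

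The summed level of 10 epithelial markers was 143.7 to 160.3 CPM in the double knockout, 83.1 to 97.8 in control A, 71.3 to 74.8 in clone 3.3 and 69.2 to 74.3 in *ΔSCC4*. In set B it was 56.1 to 60.2 in clone 1.14 and 87.6 to 101.9 in control B. The double knockout sums thus lay above control A, and those of the other 3 groups below their controls. In the double knockout 3 of the 10 were above, 0 below and 7 overlapping. KRT8, a keratin, was at 48.5 ± 3.42 CPM against 8.15 ± 1.32 and made up most of the rise of the sum. In clone 3.3 1 was above and 5 below, in *ΔSCC4* 0 above and 4 below, and in clone 1.14 0 above and 7 below. Some of the markers counted rest on few reads: over all libraries EPCAM had 1 to 31, CLDN7 0 to 13 and ESRP2 1 to 16. KRT18 gave 61.9 ± 10.7 CPM of the control A sum and 73.6 ± 10.1 of the double knockout sum, groups that overlap.

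The 7 mesenchymal markers summed to 316.8 to 356.2 CPM in the double knockout, 499.4 to 545.5 in clone 3.3 and 585.6 to 735.2 in control A, and to 437.7 to 460.0 in clone 1.14 and 557.3 to 619.9 in control B. All 3 groups without WAPL lay below their controls. VIM (vimentin) made up most of each sum, and was at 254.4 ± 20.5 CPM in the double knockout and 586.5 ± 73.5 in control A. COL1A1 went the other way in the double knockout (29.4 ± 2.24 CPM) and clone 3.3 (18.9 ± 2.68), against 13.2 ± 0.616 in control A. By single markers 1 of 7 was above and 2 below in the double knockout, 1 above and 1 below in clone 3.3, and 0 above and 3 below in clone 1.14. In *ΔSCC4* their sum was 593.2 to 664.8, within the range of control A, with 1 above and 1 below. LUM was at 0 reads in all 18 libraries.

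The 6 neural markers summed to 737.9 to 891.6 CPM in *ΔSCC4* and 752.4 to 772.8 in the double knockout, both above the 653.2 to 724.0 of control A. They summed to 564.2 to 665.4 in clone 3.3, overlapping control A, and to 781.1 to 821.8 in clone 1.14 against 774.1 to 842.3 in control B. In *ΔSCC4* 1 of 6 (NES) was above and 1 (DCX, on 0 to 10 reads per library) below. In the double knockout 2 (NES and SOX2) were above and 2 (MAP2 and DCX) below, with MAP2 at 2.78 ± 0.789 CPM against 18.3 ± 4.49. In clone 3.3 1 was above and 2 below, and in clone 1.14 2 above and 1 below. SOX2 and NES made up most of these sums, at 425.9 ± 27.8 and 238.6 ± 13.2 CPM in control A.

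The 9 hematopoietic markers summed to at most 0.713 CPM in any library, with MPO and HBG1 at 0 reads in all 18. KRT8, KRT18, EPCAM, CLDN7, ESRP2, VIM, COL1A1, NES, SOX2, DCX and MAP2 were singled out after their values were seen. The part of these marker genes in the cadherin results was not tested.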

How the data were processed

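Total RNA of 18 HAP1 samples (6 groups of 3) was sequenced by the authors from strand-specific libraries of polyadenylated RNA. Per the submitters' processing notes, reads were aligned to hg19 with TopHat2 2.0.9 and counted with HTSeq, and the authors deposited counts of reads per gene, one table per sample, without normalization. The annotation version is not given in the sources used here. Summary lines that name no gene (unassigned, ambiguous or multiply aligned reads) equal to 20.3% to 22.6% of each table were left out. Symbols, positions, exon lengths and GC content came from the GENCODE annotation of GRCh37, in which 96.6% of the 20329 identifiers were found. Controls were placed in set A or B by their titles and knockouts by the run number in the authors' names for the tables.

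Each comparison was fitted over all genes with edgeR 4.0.16 in R 4.3.3 (TMM scaling, filterByExpr defaults, glmQLFit and glmQLFTest, Benjamini-Hochberg adjusted p, threshold 0.05), using the samples of the groups compared. Standard errors were taken as the size of the log2 change divided by the root of its F statistic, which can understate them where reads are few. Intervals are 95%. CPM is TMM-normalized, and log2 CPM has a prior count of 2. An exact permutation test of 3 samples against 3 cannot go below p = 0.1 and was not used. The fits were tested on simulated data with 200 changed genes. Of the 18 pairs of replicates 0 were identical, and a chi-square comparison gave 1.61 to 52.0 per degree of freedom, above sampling noise.

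Same-numbered samples correlated above 0.1 in all 3 pairs (0.675, 0.115 and 0.615, deviations from group means) only for *ΔSCC4* and control A, and those numbers were taken as pairing the samples. The alternatives were a block on the replicate number, each library left out, a single model of all 18 samples, DESeq2 1.42.0, edgeR with DESeq2's size factors, a stricter filter (10 or more counts everywhere) or none, the longest transcript as length, and, added after seeing the data, a correction by 20 bins of exon GC content. All 10 cadherins are accounted for. From the other lists (cadherin-catenin complex, CDH1 repressors, processing and turnover, other cadherins, desmosome, nectins) up to 4 called genes per comparison whose average log2 CPM was 1 or more are named, by size of change. The cadherins and the lists were chosen with earlier results of these data known. Floors and read ranges cover counting error only.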

Additional observations from a re-analysis of the deposited data

Results flagged for a closer look

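The effect of SCC4 loss on 3 cadherins differed between cells with and without WAPL, by the interaction test of edgeR over the 12 samples of set A. The interaction was -1.14 for CDH2 (adjusted p = 0.000362), 2.93 for CDH3 (adjusted p = 3.69e-05) and 1.00 for CDH6 (adjusted p = 0.00807) on the log2 scale. Over all 12817 genes tested for the interaction, 11.3% were called. All 3 samples of *ΔSCC4* lay beyond all 3 of control A for each of these genes, on the side opposite to the difference between the double knockout and *ΔSCC4*. Of 12976 genes, 15.2% lay above and 11.7% below control A in the same way. The same samples enter the interaction, so this is not separate evidence. The *ΔSCC4* level of CDH3 rests on 5 to 11 reads per library. The labels name no second clone of *ΔSCC4* or of the double knockout, so genotype and clone cannot be told apart in this contrast.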

How the results depend on the processing

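Of 225 refits of the 15 gene results called, 207 kept their direction and their side of the threshold, 18 fell short of it and 0 reversed. The number of cadherins called in clone 3.3 against control A went from 0 to 1 in one fit over all 18 samples and with the GC correction, and in control B against control A from 0 to 1 in the same 2 settings. In the double knockout against control A it went from 1 to 0 with no filter, with at least 10 counts in every sample, and with the replicate block, where the numbers do not pair the samples. Otherwise the replicate block changed no call of a cadherin. Leaving out 1 library gave 0 to 1 calls in clone 3.3 against control A, 0 to 1 in the double knockout against control A, 1 to 3 against clone 3.3 and 3 to 3 against *ΔSCC4*, 2 to 3 in *ΔSCC4* against control A, 2 to 2 in clone 1.14 against control B, 3 to 3 for the interaction, and 0 to 0 for the difference between the clones and for the controls. With the longest transcript as length, shares in control A moved to 46.0% for CDH2, 42.9% for CDH6 and 9.41% for CDH10. The fit with at least 10 counts in every sample could not test CDH3 where *ΔSCC4* entered. Depth limits the 6 members near the floor, which these libraries cannot rank. The cause of these differences was not tested.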
